A study of Homo sapiens with 46 samples.

Results

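Divergent promoter transcripts are long noncoding RNAs that start beside a gene and run away from it on the opposite strand; their symbols carry the name of the partner gene followed by -DT. The transcripts described here are all genes with such a symbol and a mean of at least 0.5 CPM (counts per 1000000 counts of a library) over the 12 libraries treated at 200 nM. Chosen by this measured level, they number 204, of 588 genes with a -DT symbol and 60668 gene identifiers in the count tables, and each of the 204 had its partner gene in the tables. Just outside stood AKAP1-DT at 0.498 CPM and CD44-DT at 0.498 CPM, and just inside TFPI2-DT at 0.501 CPM and CHD1-DT at 0.510 CPM. Of the 204, 93 were below 0.5 CPM in at least 1 of the 4 groups treated at 200 nM, so a transcript that passed through the group where it was high had to differ there, and the counts of changes at 200 nM are given as a description.

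Most human promoters fire in both directions. The gene side usually gives a stable, spliced messenger RNA, while the other side gives RNA that is often short, poorly spliced and degraded in the nucleus, where the RNA exosome and its adaptors, the Integrator complex and the exonuclease XRN2 are known to end or destroy such transcripts. U1 snRNP and splicing signals favour elongation in the direction of the gene, and -DT genes in the annotation are those whose RNA is stable enough to have been catalogued.

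The data are RNA-seq libraries of 46 samples, which fall into 14 groups. Cells of the breast cancer line MDA-MB-231 and of the glioblastoma line U87MG were collected 48 hours after transfection with ASO-1570, an antisense oligonucleotide that targets TRA2B, or with a control ASO (ASO-CTL), each at 200 nM or at 50 nM. TRA2B is an SR-like splicing activator that binds purine-rich exon sequences. In a separate experiment both lines were given TRA2B siRNA or control siRNA (10 nM, 48 hours), and each of these 12 groups held 3 samples. A breast cancer patient-derived xenograft (PDX), a human tumour grown in mice that the labels call immunocompetent, was injected in the tumour with ASO-1570 or the control ASO at 50 mg/kg, 3 times a week for 4 weeks, with 5 tumours in each group. Nothing says that samples of a group came from separate cultures, so p-values measure the spread between these samples, which may be technical. In such bulk RNA, fewer cells of a type and less RNA per cell cannot be told apart.

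Libraries at 200 nM held 259885034 to 356831838 counts, those at 50 nM 78562645 to 112813820, the siRNA libraries 74978304 to 111134596 and the PDX libraries 75338390 to 109589376. TRA2B itself averaged 109 CPM with ASO-1570 and 198 CPM with the control ASO in MDA-MB-231 at 200 nM (log2 fold change -0.87 ± 0.06, adjusted p = 6.89e-06, edgeR quasi-likelihood test), and 76.7 and 157 CPM in U87MG (-1.03 ± 0.06, adjusted p = 3.84e-07). At 50 nM its log2 fold changes were -0.76 ± 0.07, adjusted p = 3.24e-05 in MDA-MB-231 and -1.12 ± 0.07, adjusted p = 5.42e-07 in U87MG, and with the siRNA -3.12 ± 0.07, adjusted p = 8.55e-10 and -2.83 ± 0.07, adjusted p = 2.30e-09. In the PDX it averaged 94.5 CPM with ASO-1570 and 106 CPM with the control ASO, and did not pass the test (log2 fold change -0.16 ± 0.20, SE, adjusted p = 0.707). The labels of the MDA-MB-231 samples at 50 nM and with siRNA name that cell line and breast carcinoma, but give glioblastoma as the cell type; the cell line label was followed. The epithelial keratin KRT8 was at 479 to 1586 CPM over all MDA-MB-231 libraries, 148 to 958 CPM in the PDX and 2.81 to 7.32 CPM in U87MG. Of glial and neural markers, U87MG held CHI3L1 (27.5 to 62.2 CPM), NES (9.23 to 43.5 CPM) and OLIG2 (1.63 to 3.195 CPM), while GFAP was at 0.0530 to 2.33 CPM and SOX2 and S100B did not exceed 0.105 and 0.173 CPM. In MDA-MB-231, NES and GFAP were at 11.7 to 41.1 and 1.04 to 3.72 CPM, and CHI3L1 and OLIG2 did not exceed 0.0102 and 0.0118 CPM.

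Where the annotation gives positions (GENCODE v29, GRCh38; 203 transcripts), every transcript lay on the strand opposite its partner. The starts were within 500 bp of each other for 183 and within 1 kb for 194, and 3 pairs were over 5 kb apart. The median gap was 115 bp, with overlapping starts counted as negative. For 22 pairs the 5′ ends overlapped, and 52 transcripts had exon bases antisense to an exon of the partner, 18 of them over more than 10% of their exon length. The kit keeps the strand, but the strand used in counting is not given in the sources used here, so reads of such shared bases cannot be told apart from the partner's; 127 transcripts shared under 2% of their exon bases with any gene on either strand.

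RefSeq promoter windows (GRCh38.p14, 250 bases before the start to 50 after it) were found for 159 of the 204. In 101 of the 153 pairs with both windows, the partner's start lay inside the 250 bases before the start of the -DT transcript. The windows below belong to transcripts that changed in the same direction in all 4 comparisons of ASO-1570 in cell lines, and show how little separates the divergent starts: 3 that rose (SUV39H2-DT, AFTPH-DT and GAS6-DT) and 3 that fell (COPB2-DT, FAM111A-DT and LYPLAL1-DT). Each is written 5′ to 3′ on the strand of the -DT transcript, and capitals mark the bases between the start of the -DT transcript and the start of the partner gene. Their positions are chr10:14878610-14878909, minus strand, for SUV39H2-DT, chr2:64524106-64524405, minus strand, for AFTPH-DT, chr13:113863927-113864226, plus strand, for GAS6-DT, chr3:139389553-139389852, plus strand, for COPB2-DT, chr11:59142759-59143058, minus strand, for FAM111A-DT, and chr1:219173739-219174038, minus strand, for LYPLAL1-DT.
SUV39H2-DT: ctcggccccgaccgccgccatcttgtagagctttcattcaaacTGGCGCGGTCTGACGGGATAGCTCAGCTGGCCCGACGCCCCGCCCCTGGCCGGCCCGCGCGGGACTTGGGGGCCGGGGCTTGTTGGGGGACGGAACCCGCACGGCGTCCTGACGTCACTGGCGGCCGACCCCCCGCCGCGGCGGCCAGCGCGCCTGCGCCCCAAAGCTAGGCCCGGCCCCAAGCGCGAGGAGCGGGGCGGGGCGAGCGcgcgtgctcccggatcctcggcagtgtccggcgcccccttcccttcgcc
AFTPH-DT: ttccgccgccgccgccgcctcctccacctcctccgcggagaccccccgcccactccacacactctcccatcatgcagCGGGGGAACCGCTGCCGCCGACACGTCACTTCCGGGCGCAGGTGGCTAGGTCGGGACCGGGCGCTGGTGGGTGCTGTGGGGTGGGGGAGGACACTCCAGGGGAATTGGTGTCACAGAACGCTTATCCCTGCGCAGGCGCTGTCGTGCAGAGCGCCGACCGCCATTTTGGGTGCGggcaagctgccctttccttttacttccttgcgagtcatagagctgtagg
GAS6-DT: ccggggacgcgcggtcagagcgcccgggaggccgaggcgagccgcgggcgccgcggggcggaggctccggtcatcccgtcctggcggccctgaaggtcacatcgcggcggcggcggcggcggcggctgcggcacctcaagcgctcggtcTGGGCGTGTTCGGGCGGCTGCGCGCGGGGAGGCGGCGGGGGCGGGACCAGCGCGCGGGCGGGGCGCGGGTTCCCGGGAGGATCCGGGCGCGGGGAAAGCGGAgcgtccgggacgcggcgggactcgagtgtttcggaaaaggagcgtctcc
COPB2-DT: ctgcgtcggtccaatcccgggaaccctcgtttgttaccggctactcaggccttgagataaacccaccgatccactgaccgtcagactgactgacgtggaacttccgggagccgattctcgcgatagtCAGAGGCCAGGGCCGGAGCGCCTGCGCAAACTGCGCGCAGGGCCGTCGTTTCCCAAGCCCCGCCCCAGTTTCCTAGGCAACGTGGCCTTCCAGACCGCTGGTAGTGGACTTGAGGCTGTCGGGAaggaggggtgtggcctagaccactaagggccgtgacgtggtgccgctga
FAM111A-DT: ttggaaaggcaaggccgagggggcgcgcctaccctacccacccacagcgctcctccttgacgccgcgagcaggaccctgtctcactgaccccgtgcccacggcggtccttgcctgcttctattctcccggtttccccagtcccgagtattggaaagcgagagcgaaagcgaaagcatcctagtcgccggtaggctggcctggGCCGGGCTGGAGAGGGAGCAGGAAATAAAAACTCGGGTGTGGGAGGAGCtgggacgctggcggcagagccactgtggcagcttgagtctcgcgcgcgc
LYPLAL1-DT: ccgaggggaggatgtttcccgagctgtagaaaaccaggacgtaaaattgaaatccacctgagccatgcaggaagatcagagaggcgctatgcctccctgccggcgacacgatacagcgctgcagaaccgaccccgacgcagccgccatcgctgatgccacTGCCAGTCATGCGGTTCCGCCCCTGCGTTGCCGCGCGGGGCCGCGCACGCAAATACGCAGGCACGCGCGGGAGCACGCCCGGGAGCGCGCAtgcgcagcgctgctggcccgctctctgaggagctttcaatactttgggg
By RefSeq the starts were 207, 173, 101, 123, 48 and 90 bases apart, in that order. GC content of these windows was 76%, 67%, 79.67%, 63%, 65% and 64.67%. They hold many CpG, as did the windows of the -DT transcripts in general. AFTPH-DT and COPB2-DT each hold, on the other strand, the ETS-type sequence CCCGGAAG counted next; a match in letters is a description and not a site of binding.

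Over the 159 windows the median GC content was 69%, against 58.33% over all 27305 RefSeq promoter windows, and the median ratio of observed to expected CpG was 0.904, against 0.580. Motifs were searched on both strands as plain letters, and none contains another. The GC box GGGCGG was present in 73.0% of the -DT windows and 44.6% of all windows, the ETS-type sequence CCCGGAAG in 13.2% and 4.003%. CCAAT was present in 32.7% and 35.7%, and the TATA sequence TATAAA in 4.40% and 11.9%. The partners' own 174 windows had a median GC content of 67.7% and GGGCGG in 73.6%, so windows on either side of these starts were alike in composition; many of them share bases. Of the windows of transcripts that rose in all 4 comparisons, 22 were found, with a median GC content of 69% and TATAAA in none.

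Levels were low. The median transcript had 1.49 CPM over the 200 nM libraries, and 33 reached 5 CPM, whereas the median partner had 55.3 CPM. Per kilobase of exon, the median transcript stood at 10.7% of its partner (quartiles 3.22% and 33.5%), and 19 stood above it. Those with the highest levels included SLC12A2-DT, APCDD1L-DT, ZNF584-DT and UBA6-DT. SLC12A2 encodes a sodium-potassium-chloride cotransporter, and SLC12A2-DT fell slightly in U87MG: at 200 nM it had 36.5, 35.96 and 35.6 CPM with ASO-1570, against 42.6, 41.1 and 41.4 CPM with the control ASO (log2 fold change -0.21 ± 0.07 (SE), adjusted p = 0.0267). APCDD1L-DT, beside a gene of the Wnt inhibitor APCDD1 family, had 38.6, 34.2 and 36.2 CPM with ASO-1570 and 48.5, 46.1 and 48.2 CPM with the control ASO there (log2 fold change -0.39 ± 0.07 (SE), adjusted p = 5.82e-04), and its partner fell too (-1.55, adjusted p = 1.69e-04).

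In U87MG treated with ASO-1570 at 200 nM, 110 of the 204 divergent transcripts rose and 26 fell (edgeR quasi-likelihood test, Benjamini-Hochberg adjusted p under 0.05 over all genes). Over all genes tested there, 25.8% rose and 23.9% fell, 49.7% together, and of genes with the same minimum of 0.5 CPM 25.2% rose and 35.7% fell. Among the -DT transcripts the shares were 53.9% and 12.7%, and the median log2 fold change was 0.56, against 0.02 over all genes. In MDA-MB-231 at the same dose 61 rose and 18 fell, or 29.9% and 8.82%, with a median log2 fold change of 0.25; of all genes 11.7% rose and 13.6% fell, 25.2% together, and of genes of at least 0.5 CPM 14.5% rose and 20.8% fell. So rising calls were more frequent among the divergent transcripts than over all genes in both lines, and falling calls less frequent.

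The 50 nM libraries played no part in the 0.5 CPM threshold. The transcripts were still chosen with earlier results of these data known, so the counts at 50 nM are a description too. With ASO-1570 at 50 nM, 111 rose and 21 fell in U87MG, where 27.9% of all genes rose and 26.7% fell (54.6% together; 28.3% and 35.5% of genes of at least 0.5 CPM), and the median log2 fold change was 0.54. In MDA-MB-231, 42 rose and 10 fell, where 10.1% of all genes rose and 13.2% fell (23.3% together; 12% and 18.9% of genes of at least 0.5 CPM), and the median was 0.21. Without replicate 2 of the control ASO, the count of called transcripts in MDA-MB-231 at 200 nM was 52 in place of 79, and at 50 nM it was 33 in place of 52 without replicate 1 or without replicate 2 of ASO-1570. At least a 2-fold rise was seen in 68 called transcripts in U87MG and 20 in MDA-MB-231 at 200 nM, and in 61 and 11 at 50 nM. A fall of that size was seen in 5 and 5, and in 4 and 4. The share of all genes with changes of that size is not given here, so these counts are a description only. Among the 127 transcripts that share under 2% of their exon bases with another gene, 67 rose and 13 fell in U87MG at 200 nM and 72 rose and 11 fell at 50 nM, and in MDA-MB-231 44 rose and 8 fell, and 30 rose and 4 fell.

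**Figure D1:**
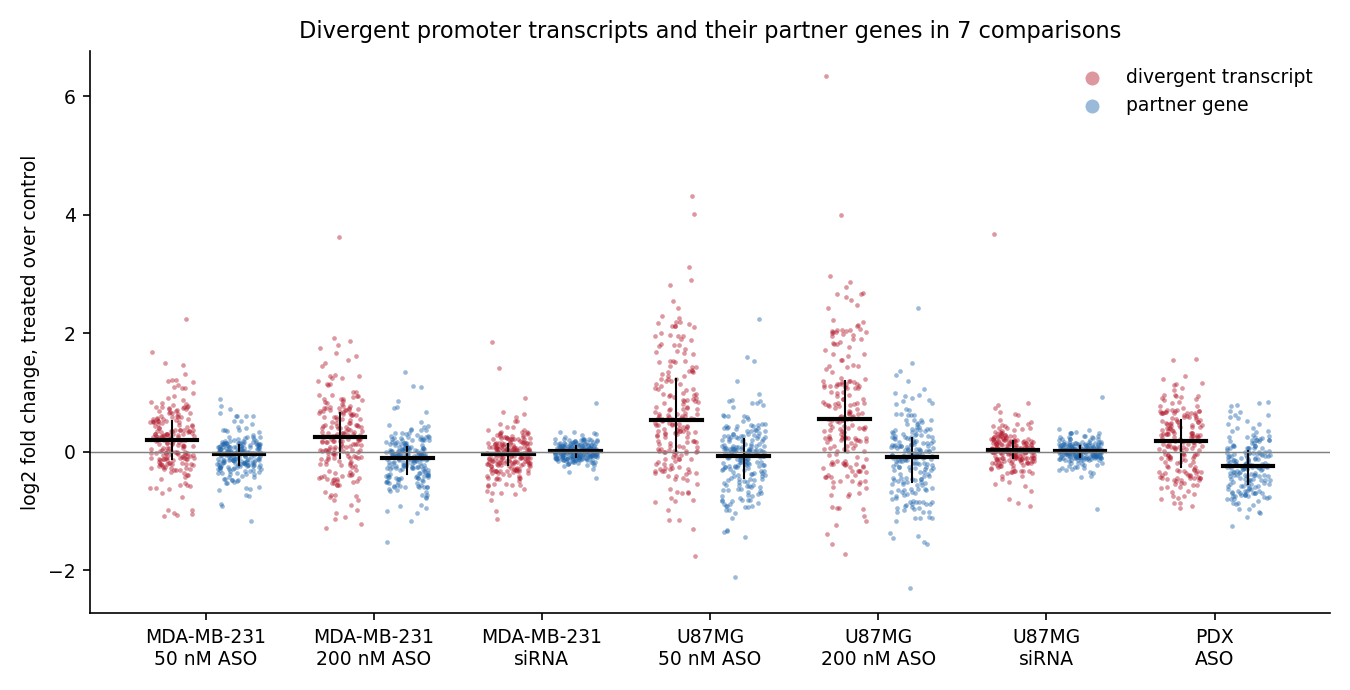
Log2 fold change, treated over control, of each divergent transcript and of its partner gene in the 7 comparisons. Points are genes, horizontal bars medians and vertical lines the span between quartiles; the medians of the divergent transcripts are 0.56 and 0.54 in U87MG with ASO-1570, 0.25 and 0.21 in MDA-MB-231, and near 0 with the siRNA.

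The values of every library did not overlap between groups, with ASO-1570 higher, for 128 transcripts in U87MG and 74 in MDA-MB-231 at 200 nM, and with ASO-1570 lower for 38 and 32; over all genes, groups did not overlap for 66.5% and 39.3%. At 50 nM the higher counts were 122 and 64 and the lower counts 28 and 31, against 62% and 41.2% of all genes in U87MG and in MDA-MB-231. Other noncoding genes also rose more often than they fell. Among 1140 other antisense and intergenic noncoding genes of at least 0.5 CPM, 43.4% rose and 16.5% fell in U87MG at 200 nM, and 25.3% rose and 9.47% fell in MDA-MB-231, where the shares were close to those of the divergent transcripts; the difference between the classes was not tested. Protein-coding genes between 0.5 and 10 CPM span the levels of most divergent transcripts. At 200 nM they rose in 24.4% and fell in 29.9% of cases in U87MG, and rose in 14.1% and fell in 13.4% in MDA-MB-231. At 50 nM 43.8% of the other noncoding genes rose and 13.9% fell in U87MG, against 54.4% and 10.3% of the divergent transcripts. In MDA-MB-231 17.9% rose and 8.34% fell, against 20.6% and 4.90%, so the shares that rose were again close. Split by level, 34 of the 64 transcripts under 1 CPM rose in U87MG at 200 nM, as did 56 of the 107 between 1 and 5 CPM and 20 of the 33 above. In MDA-MB-231 the counts were 12, 33 and 16. Level here is the mean over the same 200 nM libraries, treated and control. A rise itself lifts a transcript in level, so the split cannot separate level from change.

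Across all 4 comparisons of ASO-1570 in cell lines, 31 divergent transcripts rose every time and 4 fell every time, or 15.2% and 1.96%. Of all genes tested in the 4 comparisons 3.67% rose and 7.53% fell every time, of genes of at least 0.5 CPM 4.62% and 10.5%, and of the other antisense and intergenic noncoding genes 9.75% and 3.16%. The partners of the 35 have many roles. Among those that rose, partners act in chromatin and chromosomes (SUV39H2, SMC2, MCPH1), RNA and protein synthesis (SNRPA1, EIF3J, MRPL20), membrane traffic and lysosomal signalling (AFTPH, VPS13B, WASL, RRAGC, TBC1D22A), ubiquitin and signalling (UBA6, RIPK2, PRKACB) and zinc-finger transcription factors (ZNF584, ZNF594). Others that rose every time were the transcripts of BAIAP2, C2orf49, CAPN10, DCTN6, GAS6, GPR155, MAN1B1, PDCD6IP, PPP1R21, PTPN23, SUGT1, TMEM161B, ZMPSTE24 and ZNRD2. The 4 that fell were COPB2-DT, FAM111A-DT, KDM7A-DT and LYPLAL1-DT. The heat map gives 34 of the 35.

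**Figure D2:**
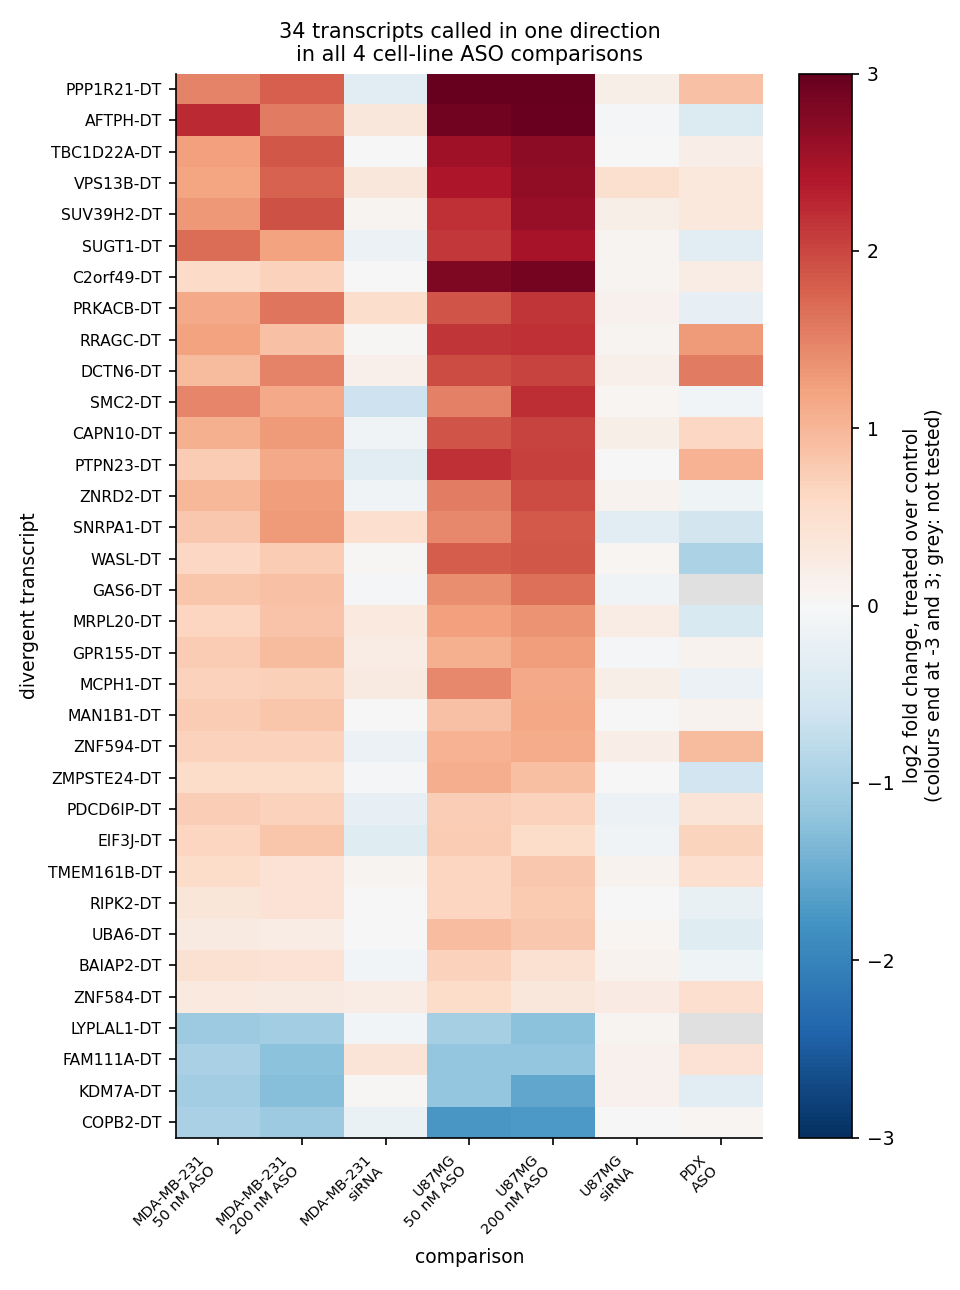
Log2 fold change, treated over control, of 34 of the 35 divergent transcripts called in the same direction in all 4 cell-line comparisons of ASO-1570, in each of the 7 comparisons (columns). Red is higher and blue lower in the treated group; the 4 fallen transcripts are COPB2-DT, FAM111A-DT, KDM7A-DT and LYPLAL1-DT, colours end at -3 and 3, and grey marks transcripts not tested in the PDX. The siRNA columns are close to white.

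Among partners of chromatin and chromosomes, SUV39H2 encodes a histone H3 lysine 9 methyltransferase. SUV39H2-DT had 3.65, 5.17 and 4.34 CPM with ASO-1570 and 0.684, 0.701 and 0.752 CPM with the control ASO in U87MG at 200 nM (log2 fold change 2.62 ± 0.23 (SE), adjusted p = 3.62e-06). In MDA-MB-231 it had 2.75, 3.79 and 1.88 CPM, against 0.706, 0.749 and 0.778 CPM (log2 fold change 1.92 ± 0.23 (SE), adjusted p = 1.65e-04). Every treated library was above every control library in both lines, and at 50 nM the log2 fold changes were 2.18 ± 0.24 in U87MG and 1.31 ± 0.24 in MDA-MB-231. SMC2 is a core subunit of condensin. SMC2-DT had 2.14, 2.14 and 2.02 CPM with ASO-1570 and 0.716, 0.726 and 0.835 CPM with the control ASO in MDA-MB-231 at 50 nM (log2 fold change 1.47 ± 0.31 (SE), adjusted p = 0.00584). It was higher in U87MG as well, with a log2 fold change of 2.22 ± 0.33 at 200 nM. PAXIP1 encodes a protein of the DNA damage response, and PAXIP1-DT rose in U87MG at 200 nM: 28.96, 42.2 and 32.6 CPM with ASO-1570 and 7.93, 7.53 and 8.26 CPM with the control ASO (log2 fold change 2.13 ± 0.15 (SE), adjusted p = 1.05e-06).

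Among partners in RNA and protein synthesis, C2orf49, or ashwin, belongs to the tRNA ligase complex. C2orf49-DT had 20.01, 26.04 and 23.3 CPM with ASO-1570 and 3.05, 3.01 and 3.42 CPM with the control ASO in U87MG at 200 nM (log2 fold change 2.87 ± 0.14 (SE), adjusted p = 1.91e-07), and about the same at 50 nM (2.81 ± 0.17). In MDA-MB-231 it rose by less, 0.70 ± 0.14 at 200 nM and 0.58 ± 0.17 at 50 nM. TRMT61A is the catalytic subunit of a tRNA methyltransferase, and TRMT61A-DT in MDA-MB-231 at 200 nM had 1.21, 1.06 and 0.798 CPM with ASO-1570, against 0.278, 0.386 and 0.301 CPM with the control ASO (log2 fold change 1.67 ± 0.19 (SE), adjusted p = 1.56e-04). PAPOLA, the canonical poly(A) polymerase gene, has a -DT transcript that rose in U87MG at both doses (1.82 ± 0.24 at 200 nM and 1.74 ± 0.22 at 50 nM); its exons share 10.4% of their bases with PAPOLA on the other strand.

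The next transcripts stand beside genes of membrane traffic, and each rose in all 4 comparisons; the grouping by role was made after the values were seen and was not tested. PPP1R21 encodes a protein of early endosomes. PPP1R21-DT, a transcript of 0.555 kb, had 3.86, 5.28 and 3.58 CPM with ASO-1570 and 0.229, 0.327 and 0.2405 CPM with the control ASO in U87MG at 200 nM (log2 fold change 3.998 ± 0.30 (SE), adjusted p = 1.21e-06), and a log2 fold change of 4.02 ± 0.26 at 50 nM. In MDA-MB-231 its log2 fold changes were 1.80 ± 0.28 and 1.495 ± 0.27. AFTPH encodes aftiphilin, a partner of clathrin adaptors. AFTPH-DT had 3.57, 4.71 and 3.28 CPM with ASO-1570 and 0.439, 0.515 and 0.596 CPM with the control ASO in U87MG at 50 nM (log2 fold change 2.90 ± 0.30 (SE), adjusted p = 1.09e-05), and 0.717, 0.643 and 0.275 CPM against 0.138, 0.107 and 0.09404 CPM in MDA-MB-231 (log2 fold change 2.25 ± 0.35 (SE), adjusted p = 9.39e-04). No treated library overlapped a control library in either line. VPS13B encodes a lipid transfer protein of the Golgi, and TBC1D22A a protein with a Rab GTPase-activating domain. VPS13B-DT had 1.32, 1.77 and 0.919 CPM with ASO-1570 and 0.3301, 0.4497 and 0.404 CPM with the control ASO in MDA-MB-231 at 200 nM (log2 fold change 1.76 ± 0.23 (SE), adjusted p = 3.13e-04). TBC1D22A-DT had 9.94, 13.1 and 4.85 CPM there, against 2.78, 2.64 and 2.22 CPM (log2 fold change 1.87 ± 0.28 (SE), adjusted p = 7.48e-04); its 3 treated libraries were far apart, and at 50 nM the groups overlapped.

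The divergent transcripts of ZNF584, a zinc-finger gene, and UBA6 changed by less. ZNF584-DT had 27.9, 24.2 and 24.8 CPM with ASO-1570 and 22.2, 21.3 and 20.5 CPM with the control ASO in MDA-MB-231 at 200 nM (log2 fold change 0.27 ± 0.07 (SE), adjusted p = 0.0148). UBA6 is a ubiquitin-activating enzyme, and UBA6-DT had 41.6, 46.9 and 45.7 CPM with ASO-1570 and 23.6, 23.9 and 23.5 CPM with the control ASO in U87MG at 50 nM (log2 fold change 0.92 ± 0.06 (SE), adjusted p = 5.42e-07). Libraries of a group lay close together for both transcripts, and the groups did not overlap. The largest fitted change in U87MG at 200 nM was that of ZNF567-DT, which had 10, 14 and 8 counts with ASO-1570 and none in the 3 libraries of the control ASO. Set against a limit of 3 counts over that group, it was at least 10.0-fold higher; its partner ZNF567 was also close to 0 there (0.0612 ± 0.0396 CPM with ASO-1570 and 0.0527 ± 0.0394 CPM with the control ASO).

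**Figure D3:**
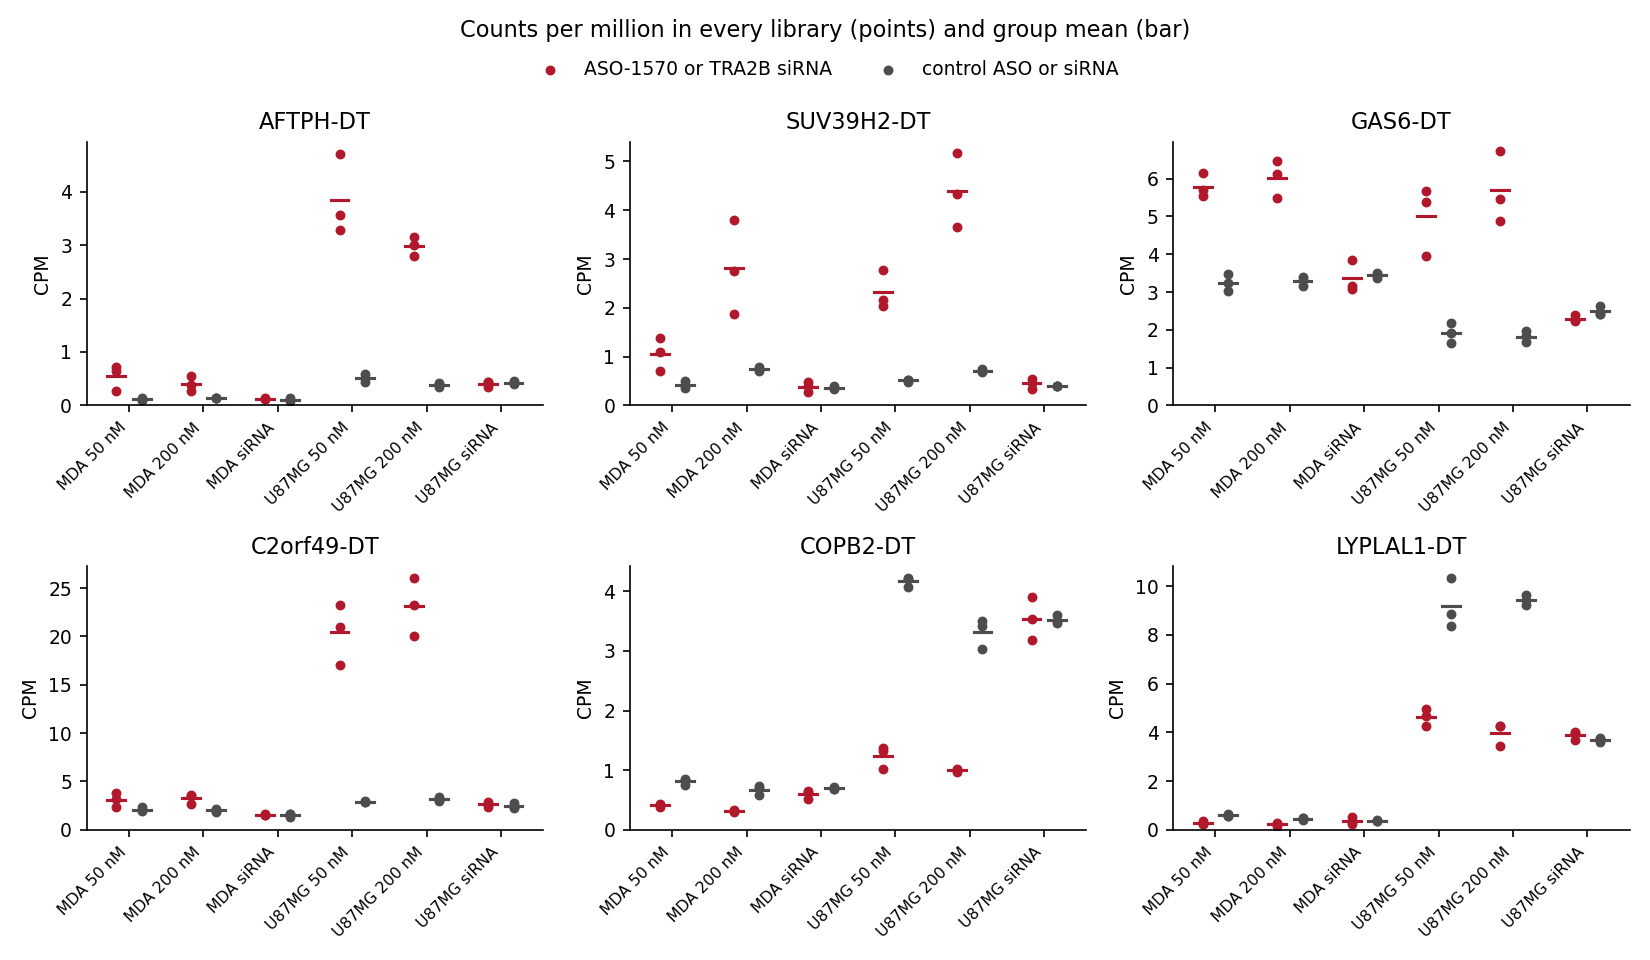
CPM in every library (points) and group mean (bars) of AFTPH-DT, SUV39H2-DT, GAS6-DT, C2orf49-DT, COPB2-DT and LYPLAL1-DT in the 6 cell-line comparisons, treated left of control; each axis starts at 0. With ASO-1570 the first 4 are above and the last 2 below their controls at both doses and in both lines, and with the siRNA none of the 6 was called.

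The transcripts that fell were fewer. COPB2 encodes a subunit of the COPI coat of Golgi vesicles. COPB2-DT had 1.03, 0.995 and 0.976 CPM with ASO-1570 and 3.02, 3.42 and 3.496 CPM with the control ASO in U87MG at 200 nM (log2 fold change -1.73 ± 0.14 (SE), adjusted p = 2.03e-06). In MDA-MB-231 it had 0.292, 0.309 and 0.332 CPM, against 0.728, 0.578 and 0.694 CPM (log2 fold change -1.10 ± 0.14 (SE), adjusted p = 2.95e-04). The groups were apart in both lines, and its log2 fold changes at 50 nM were -1.75 ± 0.13 and -0.98 ± 0.14. KDM7A is a histone demethylase gene, and KDM7A-DT had 2.21, 1.75 and 1.93 CPM with ASO-1570 and 5.59, 6.13 and 5.54 CPM with the control ASO in U87MG at 200 nM (log2 fold change -1.55 ± 0.16 (SE), adjusted p = 1.20e-05). FAM111A encodes a nuclear serine protease. FAM111A-DT fell by a similar amount in both lines, with log2 fold changes of -1.16 ± 0.15 in U87MG and -1.22 ± 0.15 in MDA-MB-231 at 200 nM. LYPLAL1 encodes a lysophospholipase-like hydrolase. LYPLAL1-DT had 4.26, 3.46 and 4.27 CPM with ASO-1570 and 9.23, 9.42 and 9.62 CPM with the control ASO in U87MG at 200 nM (log2 fold change -1.24 ± 0.16 (SE), adjusted p = 4.31e-05); 16.3% of its exon bases are antisense to LYPLAL1.

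Other falls were called in some of the comparisons. ARNT2 encodes a bHLH-PAS transcription factor, and ARNT2-DT fell in U87MG at both doses (-1.09 ± 0.28 at 200 nM and -1.30 ± 0.17 at 50 nM) and in MDA-MB-231 at 50 nM (-1.03 ± 0.19), whereas at 200 nM in MDA-MB-231 it did not pass the test (-0.56 ± 0.29, adjusted p = 0.181). DDX19A is an RNA helicase of messenger RNA export. DDX19A-DT had 0.0885, 0.134 and 0.154 CPM with ASO-1570 and 0.269, 0.341 and 0.214 CPM with the control ASO in MDA-MB-231 at 200 nM, and fell (log2 fold change -1.13 ± 0.25 (SE), adjusted p = 0.00621). MAGOH belongs to the exon junction complex, and MAGOH-DT had 2.17, 4.82 and 3.36 CPM with ASO-1570 and 7.74, 7.701 and 6.24 CPM with the control ASO in MDA-MB-231 at 50 nM (log2 fold change -1.06 ± 0.28 (SE), adjusted p = 0.0162). At 200 nM it had 0.115, 0.2196 and 0.05703 CPM with ASO-1570 and 0.147, 0.228 and 0.149 CPM with the control ASO, which did not pass the test (adjusted p = 0.461). The doses stand in separate tables, each scaled on its own, so levels are compared within a dose.

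The partner genes were called about as often as other protein-coding genes. In U87MG at 200 nM, 44 partners rose and 78 fell, or 21.6% and 38.2%, with a median log2 fold change of -0.08; of all protein-coding genes of at least 10 CPM 21.2% rose and 43.2% fell. In MDA-MB-231 24 rose and 61 fell, or 11.8% and 29.9%, with a median of -0.10, against 12.5% and 26.6% of those protein-coding genes. Both members of a pair rose in 18 pairs in U87MG and both fell in 9, while the transcript rose and its partner fell in 41 and the reverse held in 10. In 51 pairs the transcript alone rose, in 7 it alone fell, in 44 the partner alone was called, and in 24 neither was. In MDA-MB-231 the same counts were 9, 5, 13 and 3, then 39, 10, 55 and 70. At 50 nM the transcript rose while the partner fell in 42 pairs in U87MG and 11 in MDA-MB-231, and both rose in 30 and 8. With 110 transcripts risen and 78 partners fallen in U87MG at 200 nM, many opposite pairs arise even if transcript and partner change independently. Whether the counts of pairs departed from that was not tested. Across the 204 pairs, the log2 fold changes of transcript and partner had a Pearson correlation of 0.0674 in MDA-MB-231 and 0.0882 in U87MG at 200 nM, and 0.115 and 0.0902 at 50 nM; the 2 values of a pair come from the same libraries, and the pairs share depth and scaling.

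**Figure D4:**
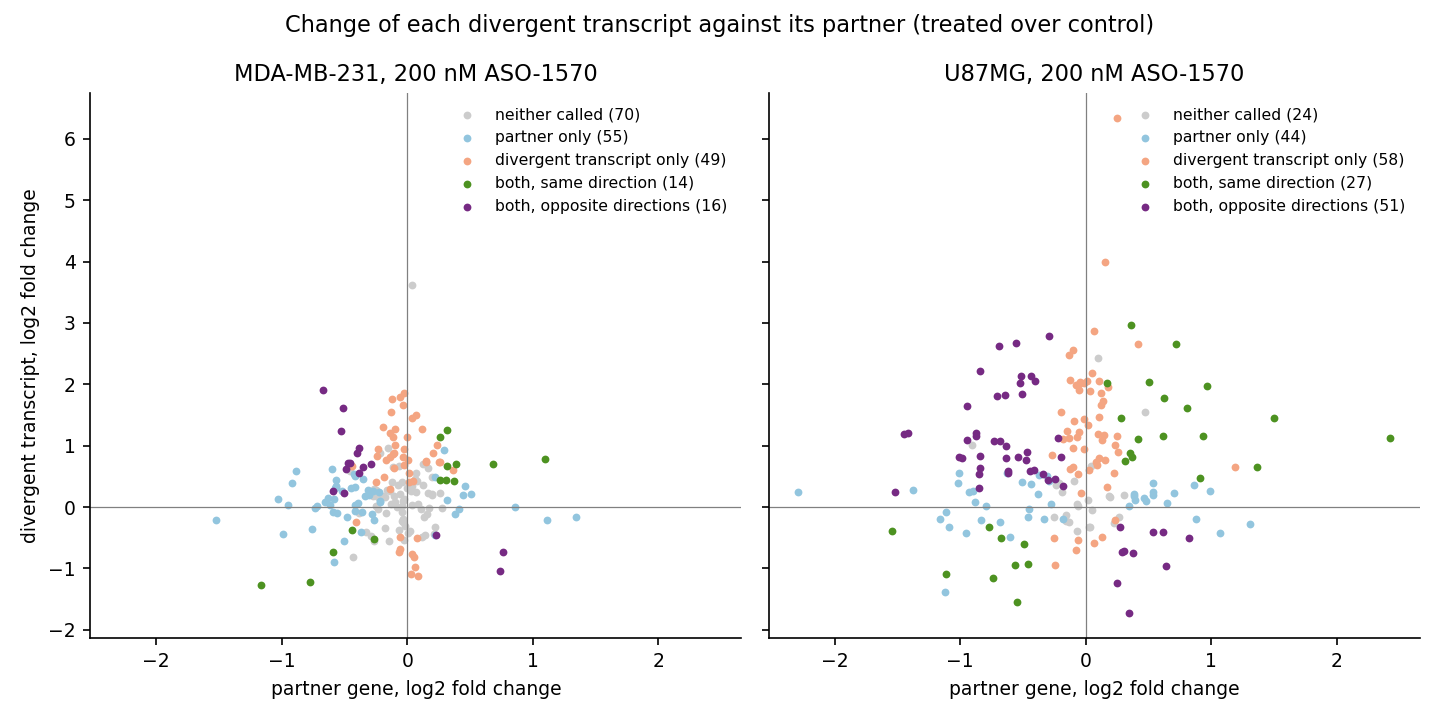
Log2 fold change of each divergent transcript (vertical) against that of its partner gene (horizontal), treated over control, in MDA-MB-231 (left) and U87MG (right) with ASO-1570 at 200 nM. Colours give the calls of the pair, with counts in the legend. In U87MG 41 pairs have a risen transcript and a fallen partner, and 10 the reverse. These counts were not tested against independent change of transcript and partner.

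The ratio of transcript to partner was tested directly (limma on the difference of log2 CPM, over all genes with such a paired symbol). It was higher with ASO-1570 in 122 pairs and lower in 27 in U87MG at 200 nM, where 50% of all pairs tested were called, and higher in 67 and lower in 18 in MDA-MB-231, where 20.4% were. At 50 nM it was higher in 120 and lower in 25 in U87MG (background 46%), and higher in 37 and lower in 11 in MDA-MB-231 (background 11.3%). All pairs tested include the -DT pairs. Their split by direction is not given here, so the splits into higher and lower ratios are a description. The median change of the log2 ratio was 0.76 in U87MG and 0.40 in MDA-MB-231 at 200 nM, and 0.77 and 0.26 at 50 nM. Without replicate 1 or 2 of ASO-1570 the count of ratios called in MDA-MB-231 at 50 nM was 24 or 27 in place of 48, and without replicate 1 or 2 of the control ASO it was 30 or 29.

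SUV39H2 and its divergent transcript moved in opposite directions in all 4 comparisons. SUV39H2 averaged 16.6 ± 1.09 CPM with ASO-1570 and 26.8 ± 0.434 CPM with the control ASO in U87MG at 200 nM (SD, n = 3 each; log2 fold change -0.69, adjusted p = 1.04e-05), and 22.1 ± 1.48 and 35.2 ± 1.51 CPM in MDA-MB-231 (-0.67, adjusted p = 9.45e-05). The log2 ratio of the pair changed by 3.29 ± 0.25 (SE), adjusted p = 8.42e-07 in U87MG and 2.52 ± 0.25 (SE), adjusted p = 5.99e-05 in MDA-MB-231. SMC2 fell in U87MG, to 130 ± 10.2 CPM with ASO-1570 against 233 ± 4.42 CPM with the control ASO, while SMC2-DT rose. GAS6, the ligand of the AXL family of receptor kinases, fell in U87MG at 200 nM (-0.95, adjusted p = 9.82e-06). GAS6-DT had 5.46, 6.73 and 4.89 CPM with ASO-1570 and 1.82, 1.96 and 1.68 CPM with the control ASO there (log2 fold change 1.64 ± 0.14 (SE), adjusted p = 2.37e-06), and rose in MDA-MB-231 (0.87 ± 0.13), where GAS6 did not pass the test (-0.11, adjusted p = 0.452). UBA6 fell at both doses in U87MG (-0.64 and -0.59), as did PAXIP1 (-0.51 and -0.35) and PAPOLA (-0.65 and -0.64), opposite to their -DT transcripts.

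MOCS2, a subunit of molybdopterin synthase, fell with ASO-1570 at 50 nM in U87MG (-0.34, adjusted p = 4.87e-05) while MOCS2-DT rose (log2 fold change 0.85 ± 0.09 (SE), adjusted p = 1.19e-05). At the same dose MRPL20, a protein of the mitochondrial ribosome, fell in MDA-MB-231 cells (-0.35, adjusted p = 6.73e-04) while MRPL20-DT rose (log2 fold change 0.65 ± 0.18 (SE), adjusted p = 0.0207). ZNF584 fell in MDA-MB-231 at both doses (-0.60 and -0.41) as ZNF584-DT rose. The opposite arrangement was seen for LYPLAL1 and CENATAC, a protein of the minor spliceosome. LYPLAL1 averaged 20.1 ± 1.23 CPM with ASO-1570 and 12.02 ± 0.262 CPM with the control ASO in MDA-MB-231 at 200 nM (log2 fold change 0.74, adjusted p = 6.06e-05) while LYPLAL1-DT fell, a change of the log2 ratio of -1.78 ± 0.18 (SE), adjusted p = 5.99e-05. CENATAC rose there (0.76, adjusted p = 1.94e-04) while CENATAC-DT fell (log2 fold change -0.74 ± 0.17 (SE), adjusted p = 0.00779).

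In other pairs the partner did not pass the test. PPP1R21 averaged 13.97 ± 0.562 CPM with ASO-1570 and 12.5 ± 0.412 CPM with the control ASO in U87MG at 200 nM (0.16, adjusted p = 0.111), so the change of its log2 ratio, 3.81 ± 0.29 (SE), adjusted p = 8.42e-07, came close to the change of the transcript. RRAGC, a Rag GTPase that brings mTORC1 to lysosomes, and C2orf49 gave a like picture: their ratios changed by 2.12 and 2.80 and their own log2 fold changes were 0.05 and 0.06. COPB2, by contrast, rose in U87MG (0.34, adjusted p = 8.91e-04) while its divergent transcript fell. KDM7A and FAM111A fell together with KDM7A-DT and FAM111A-DT in both lines at 200 nM; the log2 fold changes of KDM7A were -0.55 in U87MG and -1.17 in MDA-MB-231, and those of FAM111A -0.74 and -0.78. ERICH2-DT and ERICH2 start 13018 bp apart, and the ratio of that pair changed by 2.41 in U87MG at 50 nM; ERICH2 itself fell there (-2.11, adjusted p = 3.43e-06).

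The number of annotated exons, which the choice of transcripts did not use, went with the direction of change. Of 44 divergent transcripts with 1 exon in GENCODE v29, 38 rose in U87MG at 200 nM, or 86.4%; of 90 with 2 or 3 exons 46 rose, or 51.1%, and of 69 with 4 or more exons 25 rose, or 36.2%. The median log2 fold changes of these classes were 1.84, 0.52 and 0.14. In MDA-MB-231 at 200 nM 63.6%, 24.4% and 15.9% rose, with medians of 0.74, 0.24 and 0.02. At 50 nM the shares were 90.9%, 53.3% and 31.9% in U87MG and 38.6%, 16.7% and 14.5% in MDA-MB-231. PPP1R21-DT, SUV39H2-DT, TBC1D22A-DT, AFTPH-DT and POLG-DT, all risen in U87MG, span no more bases than their exons hold, whereas COPB2-DT and LYPLAL1-DT span many times their exon length.

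Falls had the reverse order: 1 of the 44 single-exon transcripts fell in U87MG at 200 nM, and 15 of the 69 with 4 or more exons. The median span of the risen transcripts was 4.25 kb in U87MG and 2.53 kb in MDA-MB-231 at 200 nM. That of the fallen ones was 26.0 and 17.4 kb, and that of transcripts not called 11.6 and 13.8 kb. At 50 nM the medians of risen, fallen and uncalled transcripts were 4.03, 20.3 and 19.2 kb in U87MG. In MDA-MB-231 they were 4.12, 8.68 and 9.30 kb. Fallen transcripts were thus close in span to uncalled ones at 50 nM. Other antisense and intergenic noncoding genes showed the same order in MDA-MB-231 at 200 nM (41.1%, 24.7% and 15.3%) and in U87MG (55.8%, 42.3% and 36.2%), and their shares at 2 or 3 and at 4 or more exons in MDA-MB-231 were close to those of the divergent transcripts. The share of other single-exon noncoding genes that rose was below that of single-exon divergent transcripts in each of the 4 comparisons; that difference was not tested. Exon number and span go together, and the part of each in the result was not tested.

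**Figure D5:**
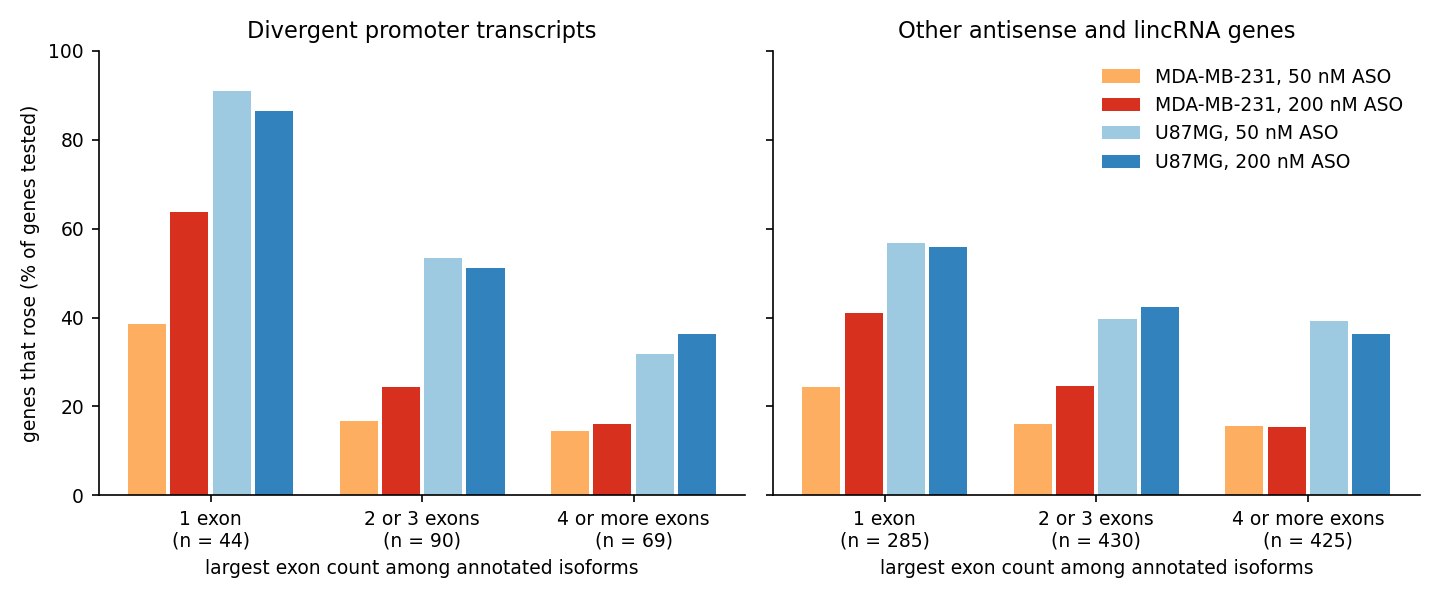
Share of genes that rose with ASO-1570 (vertical axis, percent of genes tested) by number of annotated exons, for divergent transcripts (left) and for other antisense and intergenic noncoding genes (right), in the 4 cell-line comparisons. The share is highest at 1 exon and lowest at 4 or more exons for divergent transcripts, as in U87MG at 200 nM, where it is 86.4%, 51.1% and 36.2% for divergent transcripts.

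Doses and lines were compared next; the doses have separate controls, and the lines share none. In U87MG, 94 transcripts rose at both doses, 85.5% of those that rose at 200 nM and 84.7% of those at 50 nM, and 15 fell at both, 57.7% and 71.4% of those lists; for all genes of at least 0.5 CPM the shares were 86.9% and 77.4% for rises and 82.9% and 83.4% for falls. In MDA-MB-231, 35 rose at both, 57.4% of the 200 nM list and 83.3% of the 50 nM list, and 8 fell at both, 44.4% and 80%; for all such genes the shares were 52.3% and 63.1% for rises and 71.7% and 78.7% for falls. The overlap between doses was thus near that of all genes for rises in U87MG and lower for falls at 200 nM in both lines. Between lines at 200 nM, 52 rose in both, 85.2% of the MDA-MB-231 list and 47.3% of the U87MG list; for all such genes these shares were 62.3% and 35.8%. Falls in both lines numbered 10, 55.6% and 38.5% of the lists, against 71.5% and 41.6% for all such genes. No call was made in any of the 6 cell-line comparisons for 30 of the 204. The matching share of all genes is not given here.

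Effects differed between the lines for 62 transcripts at 200 nM (interaction test in edgeR, MDA-MB-231 minus U87MG), where 23.6% of all genes did; the difference was positive for 11 and negative for 51. At 50 nM they differed for 62 of the 204, where 28.2% of all genes did, with a positive difference for 7 and a negative one for 55. The split by direction over all genes is not given here, so both splits are a description. A positive difference can come from a smaller fall in MDA-MB-231, as for COPB2-DT at 200 nM (-1.10 in MDA-MB-231 and -1.73 in U87MG). POLG is the DNA polymerase of mitochondria. POLG-DT had 0.613, 0.711 and 0.4596 CPM with ASO-1570 and 1.04, 0.977 and 1.13 CPM with the control ASO in MDA-MB-231 at 200 nM, a fall (log2 fold change -0.82 ± 0.25 (SE), adjusted p = 0.0306), and 1.23, 2.27 and 1.36 CPM against 0.282, 0.214 and 0.207 CPM in U87MG, a rise (log2 fold change 2.78 ± 0.27 (SE), adjusted p = 6.11e-06). The difference between these effects was -3.60 ± 0.36 (adjusted p = 0.000121). POLG itself had log2 fold changes of 0.06 and -0.30. ATP13A3 encodes a polyamine transporter, and ATP13A3-DT went the other way: it had 1.98, 2.33 and 1.83 CPM with ASO-1570 and 1.58, 1.41 and 1.61 CPM with the control ASO in MDA-MB-231, and 5.97, 5.92 and 6.204 CPM against 10.5, 11.3 and 13.1 CPM in U87MG, a difference of 1.36 ± 0.17 (adjusted p = 0.000353). Transcripts at 1 CPM or less in a line, such as POLG-DT and ZNF132-DT, rest on fewer counts than the others.

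TSPAN5 encodes a tetraspanin, and TSPAN5-DT in U87MG at 50 nM had 3.497, 3.33 and 4.13 CPM with ASO-1570 and 0.768, 0.646 and 0.879 CPM with the control ASO (log2 fold change 2.25 ± 0.15 (SE), adjusted p = 6.51e-07). In MDA-MB-231 it had 1.01, 1.09 and 0.975 CPM and 0.863, 0.908 and 0.905 CPM (0.20 ± 0.14, adjusted p = 0.3604), and the difference between lines was -2.05 ± 0.20 (adjusted p = 0.000135). For C2orf49-DT the difference was -2.17 ± 0.19 at 200 nM and -2.23 ± 0.24 at 50 nM. ACAD9 is needed for the assembly of respiratory complex I, and ACAD9-DT rose in U87MG at 50 nM (1.95 ± 0.18) but did not pass the test in MDA-MB-231 (0.10 ± 0.18, adjusted p = 0.762), a difference of -1.85 ± 0.25. ZNF132-DT differed by -1.73 ± 0.23 and PAXIP1-DT by -1.51 ± 0.21 at 200 nM, and UBA6-DT by -0.64 ± 0.08 at 50 nM.

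With the siRNA few divergent transcripts were called. In MDA-MB-231, 3 rose and 8 fell, where 3.65% of all genes rose and 3.6% fell (7.24% together; 4.96% and 5.08% of genes of at least 0.5 CPM). In U87MG 3 rose and 5 fell, where 1.6% of all genes rose and 2.6% fell (4.2% together; 2.14% and 3.75% of genes of at least 0.5 CPM). Among the 204, 1.47% rose and 3.92% fell in MDA-MB-231, and 1.47% rose and 2.45% fell in U87MG. The share that rose in MDA-MB-231 was below that of all genes, and the other shares were near. That difference was not tested. The median log2 fold changes were -0.03 and 0.03. These counts rest on single libraries: in MDA-MB-231 the count of 11 became 6 without replicate 1 and 5 without replicate 2 of the TRA2B siRNA, and 4, 7 and 6 without replicates 1, 2 and 3 of the control siRNA. In U87MG the count of 8 became 2, 5 and 3 without replicates 1, 2 and 3 of the TRA2B siRNA, and 1, 2 and 2 without those of the control siRNA. None of the 44 single-exon transcripts was called in either line. Calls were also rare among the 281 other antisense and intergenic noncoding genes with 1 exon. In that class the siRNA gave 9 higher and 1 lower in MDA-MB-231, and 5 higher and 3 lower in U87MG. With calls this rare, their absence among 44 transcripts cannot set the classes apart. Groups did not overlap for 27.1% of all genes in MDA-MB-231 and 23.6% in U87MG. Whether the siRNA and ASO-1570 effects differed was not tested, since they stand in separate experiments.

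The 5 transcripts that fell with the siRNA in U87MG also fell in MDA-MB-231: MRPS35-DT, RNASEH1-DT, SEPTIN7-DT, SUCLG2-DT and ZNF747-DT. MRPS35 is a protein of the small subunit of the mitochondrial ribosome. MRPS35-DT had 0.992, 0.954 and 0.952 CPM with the TRA2B siRNA and 1.68, 1.70 and 1.68 CPM with the control siRNA in MDA-MB-231 (log2 fold change -0.80 ± 0.10 (SE), adjusted p = 8.48e-04), and 1.57, 1.82 and 1.80 CPM against 2.54, 2.48 and 2.699 CPM in U87MG (log2 fold change -0.57 ± 0.10 (SE), adjusted p = 0.00867). All treated libraries were below all controls, and MRPS35 did not pass the test in either line (0.08 and -0.03). With ASO-1570 it fell as well, at both doses in MDA-MB-231 (-0.46 ± 0.11 and -0.31 ± 0.10) and at 200 nM in U87MG (-0.32 ± 0.11).

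RNASEH1 encodes ribonuclease H1, which cuts RNA in RNA-DNA hybrids. RNASEH1-DT had 5.42, 5.47 and 4.93 CPM with the TRA2B siRNA and 6.50, 6.24 and 6.401 CPM with the control siRNA in MDA-MB-231 (log2 fold change -0.27 ± 0.07 (SE), adjusted p = 0.0386), where RNASEH1 rose (0.20, adjusted p = 0.00228). With ASO-1570 RNASEH1-DT fell in MDA-MB-231 at both doses (-0.53 ± 0.09 and -0.61 ± 0.09). SEPTIN7 is a cytoskeletal GTPase, and SUCLG2 a subunit of succinyl-CoA ligase of the citric acid cycle. SEPTIN7-DT had 1.58, 1.79 and 1.48 CPM with the TRA2B siRNA and 2.53, 2.599 and 2.52 CPM with the control siRNA in U87MG (log2 fold change -0.65 ± 0.13 (SE), adjusted p = 0.0158), and was not called with ASO-1570. SUCLG2-DT had 17.4, 16.9 and 16.7 CPM with the TRA2B siRNA and 22.8, 21.7 and 23.4 CPM with the control siRNA in MDA-MB-231 (log2 fold change -0.41 ± 0.06 (SE), adjusted p = 0.00118). ZNF747-DT fell with the siRNA in both lines (-0.99 ± 0.25 and -0.91 ± 0.21) and rose with ASO-1570 in U87MG (1.46 ± 0.23 at 200 nM); 32.6% of its exon bases are antisense to ZNF747.

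RBM33-DT, MOCS2-DT and EIF3J-DT fell with the siRNA in MDA-MB-231 (-0.69 ± 0.10, -0.58 ± 0.10 and -0.36 ± 0.10) and were not called with it in U87MG. RBM33-DT shares 16.2% of its exon bases with another gene on its strand. With ASO-1570 in MDA-MB-231, EIF3J-DT instead rose at both doses (0.82 at 200 nM and 0.65 at 50 nM). MOCS2-DT rose at 200 nM (0.30) and RBM33-DT fell at 200 nM (-0.51), and neither was called at 50 nM. The siRNA raised NIPBL-DT, RNF32-DT and ERICH2-DT in MDA-MB-231 (0.34 ± 0.08, 0.43 ± 0.10 and 0.59 ± 0.16). In U87MG it raised AHI1-DT, CTBP1-DT and VPS13B-DT (0.83 ± 0.21, 0.27 ± 0.06 and 0.48 ± 0.12). CTBP1 is a transcriptional corepressor gene. CTBP1-DT had 10.8, 11.2 and 10.7 CPM with the TRA2B siRNA and 8.87, 8.73 and 9.52 CPM with the control siRNA in U87MG (log2 fold change 0.27 ± 0.06 (SE), adjusted p = 0.0374), and it and VPS13B-DT are the 2 that rose in all 3 experiments of that line. The ratio of transcript to partner was higher in 1 pair and lower in 7 with the siRNA in MDA-MB-231 (background 1.16%), and lower in 2 in U87MG (background 0.699%). The count of 8 in MDA-MB-231 became 5 without replicate 2 of the TRA2B siRNA and 3 without replicate 1 or 3 of the control siRNA, and the count of 2 in U87MG became 0 or 1 without any 1 library. No effect differed between the lines by the interaction test in edgeR (0.527% of all genes did), with 1 by DESeq2; the nearest, AHI1-DT, differed by -1.18 ± 0.27 (adjusted p = 0.0886).

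In the PDX, 189 of the 204 transcripts passed the filter on low counts, and none was called (0% of all genes were); 13 had an unadjusted p under 0.05, and DESeq2 called 0. The median log2 fold change was 0.18 for the divergent transcripts and -0.24 for their partners, and the smallest adjusted p was 0.487. Medians were 0.11 for other antisense and intergenic noncoding genes and -0.17 for protein-coding genes of at least 10 CPM, so whole classes of genes were split alike. The mitochondrial share of counts was 17.65% to 75.31% in these libraries, with a mean of 52.9% ± 21.7 in ASO-1570 tumours and 33.2% ± 13.7 in control tumours (SD, n = 5 each, exact two-sided permutation p = 0.111), against 1.74% to 3.16% in the cell lines; a fit with that share as a covariate also called 0. Groups did not overlap for 3 transcripts, MIF4GD-DT, ZNF584-DT and RELA-DT, where 0.617% of all genes did not.

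Of the 31 transcripts that rose in all 4 cell-line comparisons, 30 were tested in the PDX and 17 had a positive log2 fold change, with a median of 0.15; over all 189 tested, 117 were positive. RRAGC-DT had 0.285 to 1.49 CPM, with a median of 1.33 CPM, in ASO-1570 tumours and 0.205 to 0.845 CPM, with a median of 0.303 CPM, in control tumours (log2 fold change 1.28 ± 0.55 (SE), adjusted p = 0.487). AFTPH-DT was at 0.153 to 0.591 CPM, with a median of 0.4302 CPM, in ASO-1570 tumours and at 0.447 to 0.597 CPM, with a median of 0.522 CPM, in control tumours (log2 fold change -0.42 ± 0.36 (SE), adjusted p = 0.576). The groups overlapped for both. SLC12A2-DT had the highest mean level of the 189 there, at 112 to 230 CPM, with a median of 162 CPM, in ASO-1570 tumours and 78.3 to 198 CPM, with a median of 98.6 CPM, in control tumours. The pairs whose ratio had the smallest p in the PDX, RRAGC-DT, GALNT7-DT, DPY19L3-DT and C2orf74-DT, had log2 ratio changes of 1.91, 1.12, 1.08 and 0.92, and none passed the test (adjusted p = 0.481 for each); 0% of all pairs did.

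Splicing within -DT genes was followed by the percent spliced in (PSI), the fraction of transcripts that include an exon, from 0 to 1; the depth behind each value is unknown. In U87MG 35 of 195 tested events of -DT genes were called at 200 nM and 21 of 129 at 50 nM (limma, adjusted p under 0.05 and a difference of at least 0.1), where 19.6% and 13.8% of all events were; 17 were called at both doses, each in the same direction at both; the PSI was higher with ASO-1570 in 6 and lower in 11. They lie in APCDD1L-DT, GARS1-DT (named GARS-DT in the splicing tables), LYPLAL1-DT and RELA-DT. Without replicate 3 of the control ASO the count at 200 nM was 23, and without 1 of the 3 controls that at 50 nM was 10 or 11.

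The exons named here were chosen after their values were seen. An exon of LYPLAL1-DT, whose total fell, had a PSI of 0.939, 0.957 and 0.965 with ASO-1570 and 0.736, 0.716 and 0.758 with the control ASO in U87MG at 200 nM (difference 0.217, adjusted p = 0.00282), and 0.971 ± 0.027 and 0.651 ± 0.037 at 50 nM (SD, n = 3 each; limma adjusted p = 0.00472). An exon of APCDD1L-DT stands in 3 of these events, which differ in the neighbouring exons and went in opposite directions. In 1 of them, at 200 nM, its PSI was 0.374 ± 0.060 with ASO-1570 and 0.881 ± 0.081 with the control ASO (limma adjusted p = 0.00266); the 50 nM values were 0.405 ± 0.120 and 0.946 ± 0.093. In the other two it was higher with ASO-1570, at 0.530 ± 0.047 against 0.338 ± 0.022 with the control ASO (limma adjusted p = 0.00843) and 0.604 ± 0.073 against 0.343 ± 0.021 (limma adjusted p = 0.00823), and both rises were called at 50 nM too (differences of 0.185 and 0.218), so no single direction holds for that exon. An exon of GARS1-DT went to 0.061 ± 0.038 with ASO-1570, against 0.582 ± 0.043 with the control ASO at 200 nM (limma adjusted p = 0.000671), while another of its exons rose to 0.839 ± 0.140 with ASO-1570, against 0.268 ± 0.090 with the control ASO (limma adjusted p = 0.00653). A cassette exon of RELA-DT, beside the gene of the NF-kappaB subunit p65, was at 0.568 ± 0.157 with ASO-1570 and 0.944 ± 0.021 with the control ASO at 200 nM, and at 0.637 ± 0.041 and 0.934 ± 0.081 at 50 nM. In MDA-MB-231, 1 of 180 events was called at 200 nM, an exon of MAP4K3-DT at 0.456, 0.201 and 0.251 with ASO-1570 and 0.771, 1 and 1 with the control ASO (adjusted p = 0.0465), where 1.42% of all events were called; it was not called without replicate 2 of ASO-1570 or without any 1 of the 3 control libraries. None was called at 50 nM in that line, of 115 (0.194% of all events were), with 10 at an unadjusted p under 0.05, nor with the siRNA or in the PDX (9 of 192, 14 of 186 and 6 of 166 events at an unadjusted p under 0.05).

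Since such RNA is known to be removed by nuclear decay and termination factors, 50 genes of these machineries were listed: the RNA exosome and its adaptors, cap-binding proteins, Integrator, cleavage and polyadenylation factors, U1 snRNP proteins and XRN2. In U87MG 14 rose and 20 fell at 200 nM, and 12 rose and 21 fell at 50 nM; in MDA-MB-231 2 rose and 16 fell at 200 nM, and none rose and 20 fell at 50 nM. The median log2 fold changes were -0.09 and -0.02 in U87MG and -0.15 and -0.14 in MDA-MB-231, where the medians of all genes were between 0.00 and 0.02. As shares of the list, 28% rose and 40% fell in U87MG at 200 nM, against 21.2% and 43.2% of protein-coding genes of at least 10 CPM, and 24% and 42% at 50 nM, against 26.3% and 44.1%. In MDA-MB-231 4% rose and 32% fell at 200 nM, against 12.5% and 26.6%, and 0% and 40% at 50 nM, against 11.2% and 26%. So the falls in U87MG were no more frequent than among such coding genes, and those in MDA-MB-231 were somewhat more frequent; these differences were not tested. With the siRNA 4 rose and 3 fell in MDA-MB-231 (8% and 6%, against 6.39% and 6.76%) and 2 rose and 4 fell in U87MG (4% and 8%, against 2.48% and 5.404%), and none was called in the PDX.

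XRN2, the nuclear 5′ to 3′ exonuclease of transcription termination, averaged 27.6 CPM with ASO-1570 and 85.5 CPM with the control ASO in U87MG at 200 nM (log2 fold change -1.63 ± 0.12, adjusted p = 1.21e-06), and 92.4 and 198 CPM in MDA-MB-231 (-1.10 ± 0.12, adjusted p = 1.02e-04). At 50 nM it fell by a similar amount, with log2 fold changes of -1.70 in U87MG and -0.85 in MDA-MB-231. With the TRA2B siRNA it was slightly higher, at 97.7 CPM against 87.3 CPM with the control siRNA in U87MG (0.16 ± 0.03, adjusted p = 0.0194). MTREX, the helicase that feeds RNA to the exosome, EXOSC8, an exosome subunit, and RBM7, a subunit of the nuclear exosome targeting complex, fell in U87MG at 200 nM (-0.82, -0.79 and -0.75) and in MDA-MB-231 (-0.21, -0.28 and -0.62), while INTS12, an Integrator subunit, rose in U87MG (0.73). Whether these levels bear on the divergent transcripts was not tested.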

How the data were processed

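RNA of 46 samples was measured by RNA-seq with a stranded mRNA kit, per the labels' protocols. Gene counts are the authors' deposited tables, 1 per experiment (200 nM, 50 nM, siRNA, PDX). The submitters' processing notes name FastQC, MultiQC, Trimmomatic, STAR, StringTie and GRCh38; versions, the annotation release and the strand used in counting are not given in the sources used here. The authors deposited the splicing values as PSI, a fraction from 0 to 1, with no read counts.

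The 204 transcripts and the factor list were chosen with earlier results of these data known. Genes passing filterByExpr were fitted per table with all groups together (edgeR 4.0.16 quasi-likelihood test, TMM, R 4.3.3), and adjusted p-values (Benjamini-Hochberg, threshold 0.05) cover all genes of the table. CPM values printed are scaled by TMM. Log2 ratios (prior count 2) and PSI (range at least 0.05, difference at least 0.1) were tested with limma 3.58.1, and line differences with an interaction term. Scripts were tested on simulated data. Named transcripts followed a written rule: the 4 called transcripts with the largest change each way whose groups did not overlap, the 4 smallest p of ratios, opposite pairs and factors per comparison, the 5 largest line differences by p, the 5 highest levels, and those called in all 3 experiments of a line; others were chosen after their values were seen. A transcript that this rule names is not reported here. Alternatives were DESeq2 1.42.0, other size factors, no filter, a replicate block, fits of 2 groups, other thresholds and leaving out each library. Replicate numbers did not pair the cell-line samples, whereas PDX tumours of replicates 1 and 5 deviated together. Positions are from GENCODE v29 (GRCh38), and sequences from RefSeq (GRCh38.p14).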

Additional observations from a re-analysis of the deposited data

Results flagged for a closer look

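Single PDX libraries stood apart for 6 of 98 groups of 5 tumours: the gap from the highest or lowest tumour to the next was over 0.71 of the group's range, Dixon's 95% critical value. A rule at that level marks about 1 group in 20 by chance. In ASO-1570 tumours, C2orf74-DT reached 9.69 CPM in 1 tumour with the next at 7.05 CPM, MAGOH-DT reached 4.05 CPM with the next at 1.82 CPM, and SEPTIN7-DT was at 0.148 CPM in 1 tumour with the next at 0.336 CPM. In control tumours, NDUFA6-DT reached 8.02 CPM with the next at 4.98 CPM, SLC12A2-DT 198 CPM with the next at 111 CPM, and VPS13B-DT was at 0.420 CPM in 1 tumour with the next at 0.949 CPM.

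The effect of ASO-1570 differed between the lines by the interaction test in edgeR for the following transcripts, given as MDA-MB-231 minus U87MG on the log2 scale. At 200 nM the difference was -2.17 for C2orf49-DT (0.70 in MDA-MB-231 and 2.87 in U87MG), -3.60 for POLG-DT (-0.82 and 2.78), 1.36 for ATP13A3-DT (0.41 and -0.95), -1.73 for ZNF132-DT (0.25 and 1.98) and -1.51 for PAXIP1-DT (0.62 and 2.13). At 50 nM it was -2.05 for TSPAN5-DT (0.20 and 2.25), -2.23 for C2orf49-DT (0.58 and 2.81), -0.64 for UBA6-DT (0.27 and 0.92), -3.73 for POLG-DT (-0.62 and 3.11) and -1.85 for ACAD9-DT (0.10 and 1.95). POLG-DT and C2orf49-DT were thus among the 5 with the smallest p at both doses.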

How the results depend on the processing

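Under other settings, leaving out libraries aside, 87 of the recomputed main counts stayed within 1.5 times the reported count and 15 did not, which were these. With all -DT genes tested in place of those over 0.5 CPM, 111 of 472 were called in MDA-MB-231 at 200 nM, 68 of 406 at 50 nM and 9 of 366 with the siRNA in U87MG. Without a filter on low counts, the siRNA gave 5 calls in MDA-MB-231 and 2 in U87MG, and with DESeq2 18 in each line and 1 line difference. With -DT pairs alone in the ratio test, the siRNA gave 15 calls in MDA-MB-231 and 7 in U87MG. Cell-line samples with the same replicate number did not deviate together (correlations of -0.088 to 0.102). In the PDX the correlation was 0.774 for replicate 1 and 0.420 for replicate 5, and -0.209 to -0.097 for the others. With the replicate as a block the siRNA gave 4 called transcripts in U87MG, 1 called ratio in MDA-MB-231 and 0 in U87MG. Splicing calls with the block were 0 in MDA-MB-231 at 200 nM and 7 in U87MG at 50 nM. The block moved the other counts by less, for example to 60 transcripts in MDA-MB-231 and 122 in U87MG at 200 nM, to 52 and 130 at 50 nM, and to 48 and 60 line differences at 200 and 50 nM.

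Leaving out 1 library at a time gave 52 to 79 called transcripts in MDA-MB-231 and 116 to 127 in U87MG at 200 nM, 33 to 57 and 111 to 126 at 50 nM, 4 to 11 and 1 to 5 with the siRNA, and 0 to 0 in the PDX. Called ratios numbered 58 to 99 and 136 to 139 at 200 nM, 24 to 58 and 125 to 149 at 50 nM, 3 to 7 and 0 to 1 with the siRNA, and 0 to 0 in the PDX. Line differences numbered 43 to 77, 45 to 74 and 0 to 2 at 200 nM, at 50 nM and with the siRNA. Splicing calls numbered 0 to 1 and 23 to 38 at 200 nM, 0 to 0 and 10 to 21 at 50 nM, 0 to 0 and 0 to 1 with the siRNA, and 0 to 0 in the PDX. No named transcript reversed its direction under any of these settings; 1343 of their recomputed calls held, 135 no longer passed the test and 9 newly did. The cause of these shifts was not tested.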
